A study of Mus musculus with 11 samples.

Results

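The genes described are 10 mouse genes that mark mast cells: Cpa3, Mcpt4, Cma1, Tpsb2, Tpsab1, Ms4a2, Fcer1a, Mrgprb1, Mrgprb2 and Hdc. They were taken by symbol from a list of known mast cell genes, and all 10 were found among the 24411 genes measured. The rule uses none of their values, but the list was chosen with earlier results of these data known. They were read in 11 samples of whole mouse back skin with dermatitis, to see how far mast cell transcripts were present after irradiation and whether their level followed the type of donor marrow or the hair state of the skin.

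All hosts carried the transgene Tg(act-EGFP)Y01Osb, received 10 Gy of irradiation and were given, by tail vein, marrow sorted from femurs of Pdgfra-Cre;tdTomato donors. In 4 samples the transplanted cells were tdTomato-positive, that is, of a lineage in which the Pdgfra-driven Cre had acted, and in 7 samples they were tdTomato-negative. After 6 weeks all hosts were treated 6 times with MC903, a vitamin D analog whose skin inflammation serves as an atopic dermatitis model, and skin was taken on day 14. The age label reads 16-18 without a unit, for both groups. The host keeps its own skin cells, and mast cell RNA of host and of donor origin cannot be told apart in these gene tables. Samples without irradiation, without transplantation or without MC903 were not analysed here, so a level before irradiation has no measured counterpart. Whether every sample is a separate animal is not in the labels, and the p-values therefore cover only the variation among these libraries.

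Mast cells are long-lived tissue leukocytes that are born from marrow progenitors and mature in the tissue, in the skin mostly in the dermis. They store proteases, histamine and heparin in granules and release them when IgE on the Fc epsilon receptor is crosslinked, or when Mrgprb2 is engaged by peptides and other cationic substances. Connective tissue mast cells of mouse skin hold the chymases Mcpt4 and Cma1, the tryptases of the Tpsb2 and Tpsab1 genes and the carboxypeptidase Cpa3, whereas mucosal mast cells hold Mcpt1 and Mcpt2. Their survival rests on the receptor Kit and its ligand, and their genes on transcription factors such as Gata2 and Mitf.

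The promoters of 4 of the genes are shown because these genes either moved together over the 11 samples (Cpa3, Cma1 and Fcer1a) or stood apart from them (Hdc). Each is the RefSeq window on GRCm38.p6 from 250 bases before to 50 bases after the transcript start, 300 bases in all, read 5′ to 3′ on the minus strand. Capitals mark GATAA, the core of GATA factor sites, on either strand (TTATC on the other), and CANNTG, the E-box bound by helix-loop-helix factors. No marked stretches overlap. The windows are chr3:20242132-20242431 for Cpa3, chr14:55944626-55944925 for Cma1, chr1:173227180-173227479 for Fcer1a and chr2:126618629-126618928 for Hdc.
Cpa3: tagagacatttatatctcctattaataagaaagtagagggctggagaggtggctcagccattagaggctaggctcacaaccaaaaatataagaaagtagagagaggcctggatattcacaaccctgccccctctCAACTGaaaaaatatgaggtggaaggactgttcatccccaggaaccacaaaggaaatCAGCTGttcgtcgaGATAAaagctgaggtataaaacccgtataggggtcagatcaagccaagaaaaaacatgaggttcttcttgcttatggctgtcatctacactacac
Cma1: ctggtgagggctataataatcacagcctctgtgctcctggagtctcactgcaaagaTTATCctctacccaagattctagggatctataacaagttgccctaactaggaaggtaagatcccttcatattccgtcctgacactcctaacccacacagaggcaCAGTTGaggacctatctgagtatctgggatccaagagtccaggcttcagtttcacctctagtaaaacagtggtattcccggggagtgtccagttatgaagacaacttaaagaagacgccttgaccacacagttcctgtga
Fcer1a: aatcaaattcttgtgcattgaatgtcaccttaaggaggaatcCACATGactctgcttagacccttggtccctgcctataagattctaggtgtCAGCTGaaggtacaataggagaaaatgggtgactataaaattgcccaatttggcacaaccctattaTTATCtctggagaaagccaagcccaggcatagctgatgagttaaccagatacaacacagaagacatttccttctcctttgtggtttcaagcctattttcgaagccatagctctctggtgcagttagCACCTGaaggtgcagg
Hdc: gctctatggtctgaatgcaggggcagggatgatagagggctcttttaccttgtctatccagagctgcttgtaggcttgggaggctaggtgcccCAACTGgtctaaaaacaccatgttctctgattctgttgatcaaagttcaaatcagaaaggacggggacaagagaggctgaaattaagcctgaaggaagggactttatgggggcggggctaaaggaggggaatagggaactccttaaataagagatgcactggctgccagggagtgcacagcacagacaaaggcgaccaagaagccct
RefSeq promoters were at hand for 8 of the 10 genes, and Tpsb2 and Tpsab1 had no entry. GATAA on either strand was present in 7 of the 8, all but Hdc, and in 25.4% of 32851 mouse promoters of the same length. The Hdc window lies wholly inside the gene's span (chr2:126593659-126624025), so any start nearer the 5′ end of that span was not examined. CANNTG was present in 6 of the 8 and in 72.3% of all promoters, and both together in 5 of the 8 and in 19.4% of all. Such matches describe letters in a window and are not evidence of binding.

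The genes lie on 7 chromosomes, and 6 of them form 3 close pairs of relatives. On GRCm38.p6 the chymase genes Cma1 (chr14:55941451-55944675) and Mcpt4 (chr14:56059744-56062310) are 115.1 kb apart. The tryptase genes Tpsab1 (chr17:25343245-25345562) and Tpsb2 (chr17:25366308-25368096) are 20.7 kb apart. The receptor genes Mrgprb1 (chr7:48444113-48456342) and Mrgprb2 (chr7:48550965-48558086) are 94.6 kb apart. The other members are Cpa3 (chr3:20215616-20242209), Ms4a2 (chr19:11615517-11623790), Fcer1a (chr1:173221269-173227232) and Hdc (chr2:126593659-126624025). No stretch of 50 bases was shared between the transcripts of any of the 3 pairs. RSEM, which divides reads that map to several genes, gave a fractional count to 1 member, Mcpt4, in 4 of 11 samples. RefSeq annotates Tpsab1 as a transcribed pseudogene.

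Mast cell transcripts were present in all 11 samples. The summed level of the 10 genes, in TPM (a level per transcript length, scaled to the library), was 417, 369, 350.0 and 228 in the tdTomato-positive group. In the tdTomato-negative group it had a lowest value of 113, a median of 196 and a highest value of 837 TPM. The highest and the lowest sample were thus both in the negative group, and the 4 positive samples lay between them. The means were 341 ± 80.3 TPM (SD, n = 4) in the positive and 306 ± 246 TPM (SD, n = 7) in the negative group. Without negative replicate 1, the highest sample, the negative mean was 217 ± 81.4 TPM (SD, n = 6). The sum differed 7.39-fold between the highest and the lowest of the 11 samples, and 3.68-fold without negative replicate 1.

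As a check of the labelled tissue, 10 epidermal markers summed to between 17830 and 31110 TPM in the positive and between 10040 and 32040 TPM in the negative group. Of other leukocytes that share single mast cell genes, the basophil list summed to between 44.3 and 103 TPM in the positive and between 22.1 and 95.6 TPM in the negative group. This list also holds Csf1, Il6 and Il4, whose RNA is not limited to basophils. Csf1 alone had 19.3 to 29.2 TPM in the positive and 12.9 to 26.6 TPM in the negative group. Mcpt8, a basophil protease gene, was detected in all 11 samples, with 5.97 to 14.9 TPM in the positive and 0.94 to 22.8 TPM in the negative group. Prss34, the other defining basophil protease gene, was listed at 0 TPM in 5 of 11 samples. Neutrophil markers summed to between 289 and 2958 TPM in the positive and between 340 and 2633 TPM in the negative group. Most of this sum came from S100a8 (169 to 1493 TPM in the positive and 221 to 1600 TPM in the negative group) and S100a9 (91.2 to 1176 and 81.2 to 951 TPM). Of the granule genes in the list, Elane was at 0 in all 11 samples. Mpo was at 0 in 8 samples, Camp in 4, and Ngp and Ltf in 2 each. The highest values of these were 0.36 TPM for Mpo, 6.77 for Camp, 4.83 for Ngp and 1.30 for Ltf. Cxcr2 had 4.45 to 18.2 TPM in the positive and 1.99 to 9.09 TPM in the negative group. The cell source of these transcripts was not tested. The libraries held from 7190752 to 9749842 expected counts, and the depths of the groups overlapped.

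Per transcript length, the granule proteases were the most abundant members. Over the 11 samples the mean level was 107.5 ± 71.2 TPM (SD, n = 11) for Mcpt4, 63.8 ± 39.1 TPM for Cma1, 56.4 ± 38.5 TPM for Cpa3 and 47.7 ± 32.0 TPM for Tpsb2. Hdc, the enzyme that makes histamine, followed with 21.6 ± 20.3 TPM. The Fc epsilon receptor genes averaged 11.4 ± 7.19 TPM for Fcer1a, which encodes the chain that binds IgE, and 4.13 ± 2.07 TPM for Ms4a2, which encodes the signalling beta chain. The G protein-coupled receptor genes averaged 3.67 ± 2.05 TPM for Mrgprb1 and 1.49 ± 0.795 TPM for Mrgprb2. Tpsab1 was lowest with 0.991 ± 1.02 TPM. The ranges of neighbours in this order overlapped over the samples, but within a sample the order was mostly kept. Mcpt4 exceeded Cma1, Fcer1a exceeded Ms4a2 and Mrgprb1 exceeded Mrgprb2 in 11 of 11 samples. Cma1 exceeded Cpa3 in 10 of 11, Cpa3 exceeded Tpsb2 in 9 of 11, and Hdc exceeded Fcer1a in 8 of 11.

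**Figure D1:**
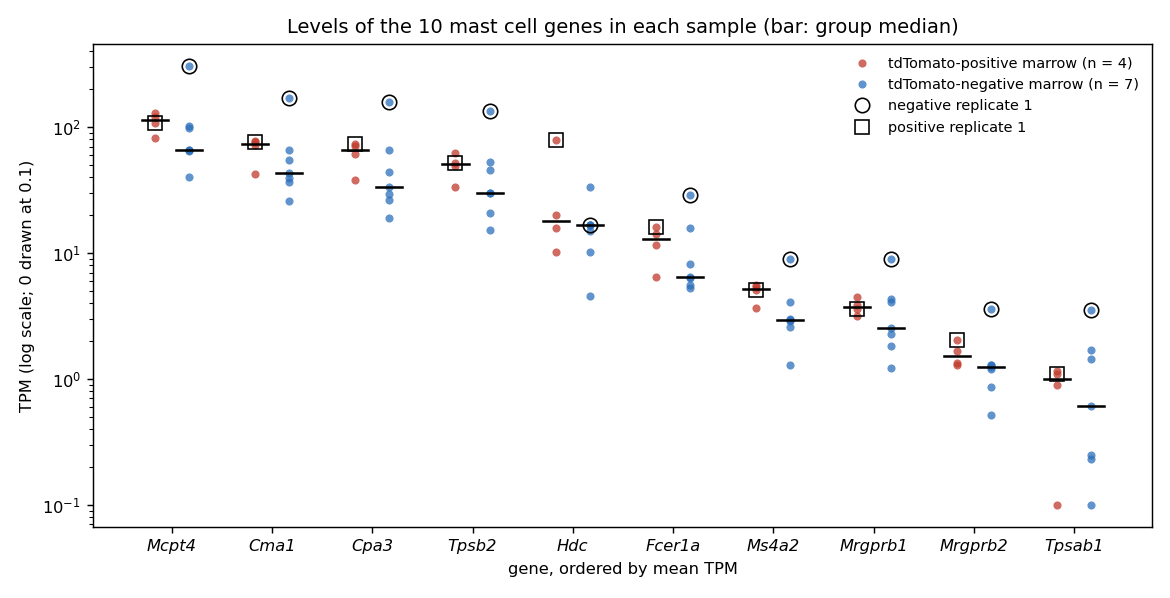
The level of each member in TPM on a log axis, with genes ordered by mean level from left to right, the 4 tdTomato-positive samples (red) left of the 7 tdTomato-negative samples (blue) and a bar at each group's median. Negative replicate 1 (ringed) tops 9 of the 10 genes, and positive replicate 1 (boxed) tops Hdc.

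Among the proteases, Cpa3 had 73.8, 70.7, 61.5 and 37.9 TPM in the positive group. In the negative group its lowest, median and highest values were 19.0, 33.7 and 157 TPM. Positive replicate 4 lay below 3 of the negative samples, and negative replicate 1 lay above all 4 positive ones. Mcpt4 had 108, 120, 128 and 82.5 TPM in the positive group, against 40.4, 66.0 and 306 TPM as the lowest, median and highest negative values. Cma1, by sequence a chymase, which in mouse cleaves like an elastase, had 76.3, 71.6, 77.4 and 42.3 TPM in the positive group. Its lowest, median and highest negative values were 25.9, 43.4 and 169 TPM. In Mcpt4 and Cma1 the positive samples other than replicate 4 were above 6 of the 7 negative samples, while for Cpa3 positive replicate 3 was also below negative replicate 2. Negative replicate 1 was above all other samples in the 3 genes.

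The tryptase gene Tpsb2 had 52.0, 62.2, 49.3 and 33.2 TPM in the positive group, with 15.1, 30.2 and 134 TPM as the lowest, median and highest negative values. Tpsab1 had 1.09, 0.890, 1.15 and 0 TPM in the positive group, and 0, 0.610 and 3.54 TPM as the lowest, median and highest negative values. It was listed at 0 in positive replicate 4 and in negative replicate 3, where a count of 0 allows up to 0.405 and 0.404 CPM (a level scaled to the library without regard to length). That limit covers counting error only. Tpsab1 did not pass the filter on low counts, so 9 of the 10 members were tested.

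Among the receptors, Ms4a2 had 5.04, 3.65, 5.35 and 5.62 TPM in the positive group, against 1.30, 2.95 and 8.98 TPM as the lowest, median and highest negative values. Fcer1a had 16.1, 14.2, 11.6 and 6.46 TPM in the positive group, against 5.27, 6.44 and 29.1 TPM. The 2 receptor chains parted in positive replicate 4, which was the highest positive sample for Ms4a2 and the lowest for Fcer1a. Mrgprb1 had 3.61, 4.48, 3.89 and 3.16 TPM in the positive group, against 1.22, 2.53 and 8.94 TPM as the lowest, median and highest negative values. Mrgprb2 had 2.04, 1.67, 1.35 and 1.28 TPM in the positive group, against 0.520, 1.25 and 3.58 TPM. In both Mrgpr genes the 4 positive samples spanned less than the negative ones.

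Hdc had 78.9, 19.9, 10.2 and 15.9 TPM in the positive group. Its lowest, median and highest negative values were 4.53, 16.6 and 33.5 TPM. Positive replicate 1 stood far above the other 10 samples, whereas negative replicate 1, the highest sample for the other 9 members, was the 6th highest for Hdc. Negative replicate 3 was the lowest sample for Hdc as for 8 other members, and Tpsab1 was at 0 there too. In none of the 10 members were the groups apart in CPM, and over all 14588 genes tested the groups did not overlap in 1.67%.

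Most members varied less in proportion to Cpa3 than in their own level. The Cpa3 level differed 8.28-fold between the highest and the lowest sample. Relative to Cpa3 in the same sample, Mcpt4 stood at 1.99 ± 0.322 (SD, n = 11; a ratio of TPM), with a range of 1.47 to 2.42. Cma1 stood at 1.19 ± 0.159, Tpsb2 at 0.860 ± 0.129 and Fcer1a at 0.207 ± 0.0325 of the Cpa3 level. For Mrgprb1, Mrgprb2 and Ms4a2 the ratios varied more between samples, with coefficients of variation of 22.6%, 28.3% and 35.7%, and these are the genes with the lowest levels among those tested. The ratio of Hdc to Cpa3 varied from 0.106 in negative replicate 1 to 1.07 in positive replicate 1, with a coefficient of variation of 63.5%.

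Of 21 relations of log2 CPM computed over the 11 samples, with permutation tests of 100000 resamples and Benjamini-Hochberg adjustment over the 21, the closest for Cpa3 was with Cma1. Its Pearson r was 0.984 and its Spearman rho 0.964 (permutation p = 1e-05 for each, the smallest the test can give; adjusted p = 7e-05 and 5.25e-05). Without the 2 samples farthest from the median, negative replicates 1 and 3, r was 0.968. For Mcpt4, Tpsb2, Fcer1a, Mrgprb1 and Mrgprb2, r with Cpa3 lay between 0.903 and 0.969 and rho between 0.900 and 0.982, with adjusted permutation p-values from 5.25e-05 to 0.00123. Without those 2 samples their r lay between 0.736 and 0.963. For Ms4a2, r was 0.830 and rho 0.746 (permutation p = 0.0017 and 0.0109, adjusted 0.00325 and 0.0207), and r was 0.580 without those 2 samples, so this relation rests partly on them. Hdc was not shown to follow Cpa3: r was 0.525 and rho 0.609 (permutation p = 0.0963 and 0.0513, adjusted 0.112 and 0.0718), with r = 0.590 without the same 2 samples. Without negative replicate 1 alone, r between Hdc and Cpa3 was 0.719.

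**Figure D2:**
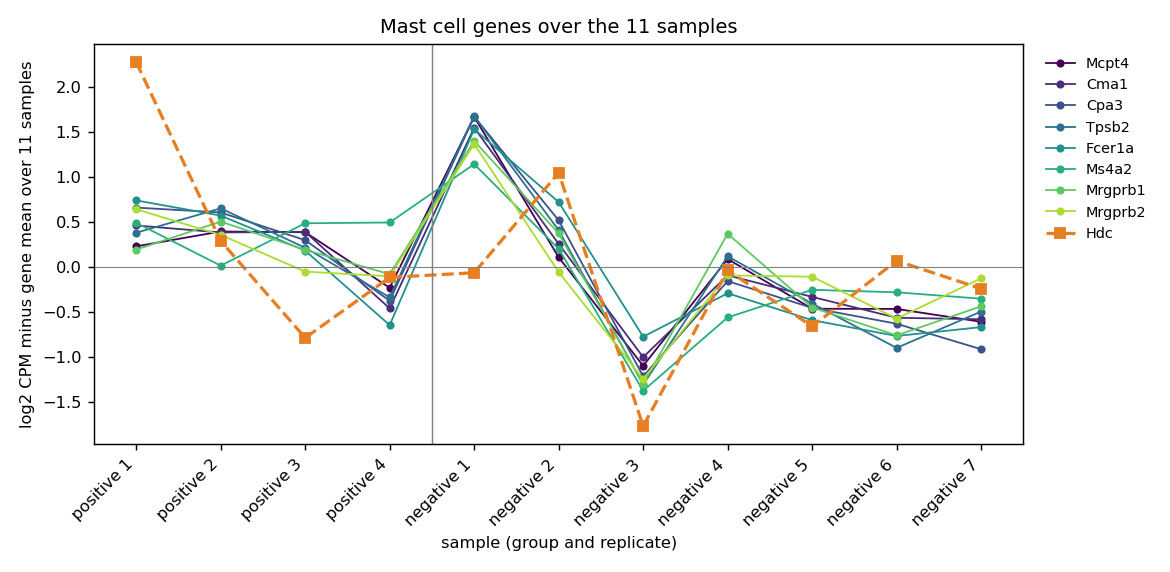
Each line is the log2 CPM of 1 gene minus its own mean over the 11 samples, with the 4 tdTomato-positive samples left of the vertical line and the 7 negative ones right of it. The 8 other genes peak together at negative replicate 1 and drop together at negative replicate 3, while Hdc (orange, dashed) peaks at positive replicate 1.

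The level of mast cell transcripts was not shown to follow the type of donor marrow. With edgeR's quasi-likelihood test, 0 of the 9 tested members passed the threshold of 0.05 on the adjusted p (Benjamini-Hochberg), and over all 14588 genes 0% did. At an unadjusted p under 0.05 there were 0 of the 9 members and 2448 genes in all (16.8%), and DESeq2 called 68 genes (0.466%), 0 of them members. All 9 fitted log2 fold changes (positive over negative) were above 0, as were 48.6% of all genes, with a median of 0.14 against -0.01 for all genes. The proteases had log2 fold changes of 0.19 ± 0.49 (SE) for Cpa3, 0.04 ± 0.44 for Mcpt4, 0.10 ± 0.43 for Cma1 and 0.08 ± 0.48 for Tpsb2, with edgeR adjusted p-values from 0.866 to 0.973. The 95% interval for Cpa3 ran from -0.88 to 1.25. The receptors had 0.41 ± 0.36 for Ms4a2, 0.14 ± 0.47 for Fcer1a, 0.08 ± 0.42 for Mrgprb1 and 0.16 ± 0.40 for Mrgprb2, with edgeR adjusted p-values from 0.555 to 0.941. Hdc had 0.96 ± 0.56 and an edgeR adjusted p of 0.386. In whole skin, fewer mast cells and less RNA per mast cell cannot be told apart.

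Negative replicate 1 stood apart in most members. It held 4.10 times as much Cpa3, 4.05 times as much Mcpt4 and 2.85 times as much Ms4a2 as the mean of the other 6 negative samples, in CPM, and 0.979 times as much Hdc. Without it the median log2 fold change of the 9 members was 0.60, again with all 9 above 0, where 50.9% of all genes were. Cpa3, Mcpt4, Cma1 and Ms4a2 then had an unadjusted p under 0.05, as did 10.6% of all genes in that direction, and 0 passed the adjusted threshold. On leaving out each of the other samples in turn, the median lay between 0.02, without negative replicate 3, and 0.28, without positive replicate 4. Without negative replicate 1 the smallest edgeR adjusted p among the members was 0.130, for Ms4a2, with a log2 fold change of 0.76. Negative replicate 1 also had the highest summed level of the 20 fibroblast and matrix genes, 12580 TPM, where the other negative samples had 5194 to 7797 and the positive samples 6624 to 9950 TPM. On the score of these genes, which weights them equally, it was the third highest at 0.934, behind positive replicates 1 and 2 at 1.11 and 0.946. Cpa3 correlated with this score (r = 0.657 and rho = 0.664, permutation p = 0.0283 and 0.0312, adjusted 0.0391 and 0.0469), and r was 0.417 without negative replicates 1 and 3, so the relation rests on those samples. With the fibroblast score as a covariate the median of the members was -0.47, with 7 of 9 below 0, as were 50.9% of all genes. With that covariate and without negative replicate 1 it was 0.29, with 9 of 9 above 0, so the direction rests on that library. Cpa3 had r = 0.602 and rho = 0.691 with the endothelium score (permutation p = 0.0493 and 0.0223, adjusted 0.0609 and 0.0360), and r = 0.399 without the same 2 samples. The part of dermal content in the mast cell level was not tested.

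The hair state of the skin differed widely between the samples and overlapped with the groups. Hair follicles pass through growth and rest in waves, and skin in the growth phase holds much keratin RNA of the hair shaft. The hair score, the mean z-score of 34 hair genes, was -0.46, -1.30, -1.06 and 0.46 in the positive group. In the negative group it was -1.53 in replicate 7 and -0.47 in replicate 1, and between 0.72 and 1.14 in the other 5. Skin low in hair transcripts thus made up 3 of 4 positive and 2 of 7 negative samples.

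In a model with group and hair score, the mast cell genes were not shown to follow the hair score. Of the 9 members 0 were called, where 12% of all 14588 genes were (4.37% with a lower level at a higher score). DESeq2 also called 0 members, and 0 had an unadjusted p under 0.05 with edgeR, where 28.6% of all genes did. The coefficients, in log2 units per unit of hair score, were -0.49 ± 0.30 (SE) for Cpa3, -0.48 ± 0.25 for Mcpt4, -0.47 ± 0.24 for Cma1 and -0.54 ± 0.27 for Tpsb2, with edgeR adjusted p-values from 0.217 to 0.309. For Fcer1a, Mrgprb1, Mrgprb2 and Ms4a2 they were -0.43, -0.37, -0.37 and -0.22, and for Hdc 0.06. The median was -0.43, and 8 of 9 were below 0, as were 51.2% of all genes. With the hair score in the model, the group difference of the members had a median of -0.25, with 7 of 9 values below 0, as were 50.5% of all genes. Without negative replicate 1 the same model gave a median of 0.50 and 9 of 9 above 0, with 1 unadjusted p under 0.05 and 0 members called.

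The result for hair rested on 2 libraries that pulled in opposite directions. Negative replicate 7 had the lowest hair score of the 11 samples and little mast cell RNA, being 8th to 10th of 11 in every member. Without it the median coefficient was -0.97, and 6 of 9 members were called lower at a higher hair score, where 3.36% of all genes were. These were Cpa3 (-1.05), Mcpt4 (-0.97), Cma1 (-0.98), Tpsb2 (-1.06), Fcer1a (-1.01) and Mrgprb1 (-0.83). Their edgeR adjusted p-values lay between 0.00689, for Cma1, and 0.0482, for Mrgprb1. Negative replicate 1 had a low hair score and the most mast cell RNA. Without that sample the median coefficient was -0.08 and 0 members were called. With the fibroblast and matrix score added to the model, the median was 0.15 and all 9 were above 0, with 0 called.

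**Figure D3:**
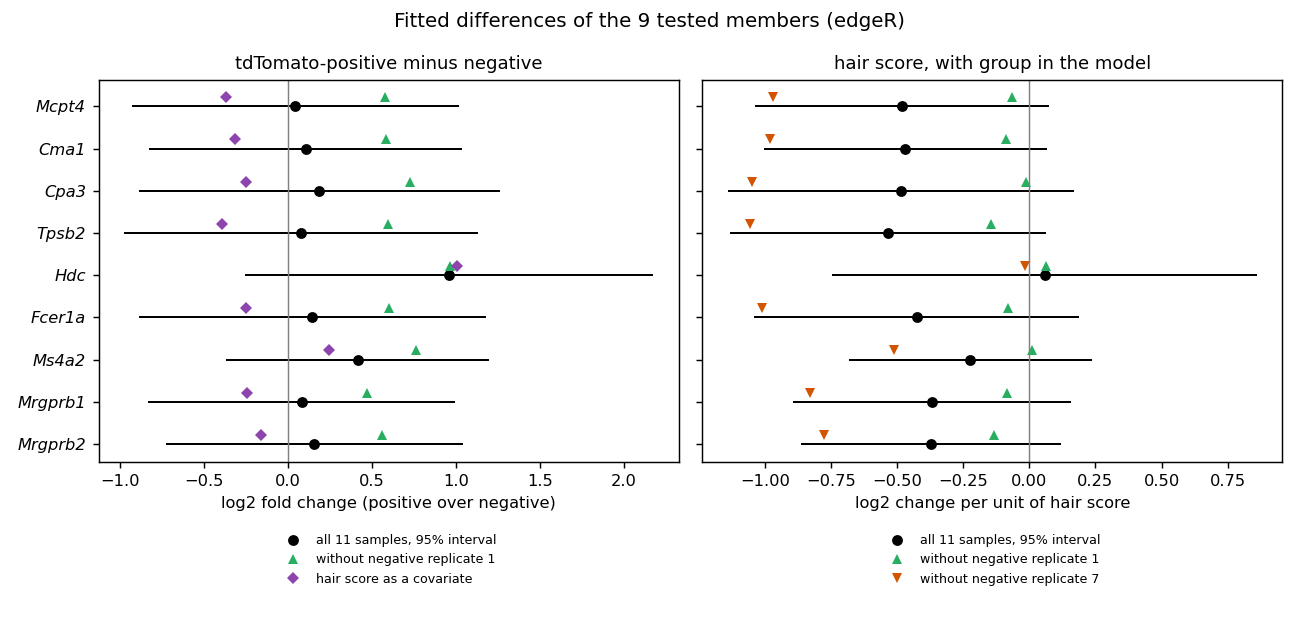
Left, the log2 fold change of the tdTomato-positive over the negative group for the 9 tested members, and right, the log2 change per unit of hair score with group in the model. Black points and lines are fits on all 11 samples with 95% intervals, all of which include 0, and coloured marks are the values without negative replicate 1, without negative replicate 7 or with the hair score as a covariate.

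Hdc correlated with neutrophil markers. Its correlation with the score of 8 neutrophil markers was r = 0.909 and rho = 0.818 (permutation p = 0.00016 and 0.00322, adjusted 0.00042 and 0.00751), and r was 0.791 without positive replicate 1 and negative replicate 3, the 2 samples farthest from its median. Within the 7 negative samples alone r was 0.946, and the 4 positive samples are too few for a value of their own. The score weights its 8 genes equally, S100a8 and S100a9 included. Cpa3 was not shown to follow the same score (r = 0.405 and rho = 0.491, permutation p = 0.218 and 0.128, adjusted 0.218 and 0.150). Without negative replicates 1 and 3, the 2 samples farthest from the Cpa3 median, r was 0.570, and without negative replicate 1 it was 0.650. The difference between the Hdc and Cpa3 correlations with this score was not tested. With the score of the basophil list Cpa3 had r = 0.651 and rho = 0.491 (permutation p = 0.0298 and 0.129, adjusted 0.0391 and 0.150). Without negative replicates 1 and 3 that r was 0.456. Between the groups 8 of 8 tested neutrophil markers were above 0, where 48.6% of all genes were. The median log2 fold change of these markers was 0.69, and 0.22 without positive replicate 1. Positive replicate 1 had both the highest neutrophil score, 1.84, and the highest Hdc level. Without that sample the log2 fold change of Hdc was -0.10 in place of 0.96, and with the neutrophil score as a covariate it was -0.19, with edgeR adjusted p-values of 0.948 and 0.811.

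The relations of Hdc with 3 other genes were chosen after their values were seen. The adjustment covers the 21 relations computed and not that choice, so the p-values of these 3 relations are a description and not a test. Srgn, which encodes the proteoglycan core of granules in mast cells and other leukocytes, had r = 0.933 and rho = 0.982 with Hdc (permutation p = 2e-05 and 1e-05, adjusted 8.4e-05 and 5.25e-05). Without positive replicate 1 and negative replicate 3 its r was 0.961. Srgn had 432, 174, 48.0 and 109 TPM in the positive group, against 50.3, 80.8 and 276 TPM as the lowest, median and highest negative values. Il4, a cytokine of type 2 inflammation made by T cells, basophils and mast cells, had r = 0.896 and rho = 0.764 (permutation p = 0.00081 and 0.00835, adjusted 0.00189 and 0.0175), and r = 0.733 without those 2 samples. Ptgs2, the inducible cyclooxygenase, had r = 0.843 and rho = 0.855 (permutation p = 0.00166 and 0.00151, adjusted 0.00325 and 0.00396), and r = 0.808 without them. The score of the basophil list, which includes Il4, had r = 0.825 with Hdc (rho = 0.591, permutation p = 0.00256 and 0.0613, adjusted 0.00448 and 0.0805) and r = 0.577 without those 2 samples. The macrophage marker score had r = 0.759 (rho = 0.482, permutation p = 0.0104 and 0.138, adjusted 0.0156 and 0.153), and r was 0.0890 without them, so that relation rests on those samples. The cell source of Hdc RNA was not tested.

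**Figure D4:**
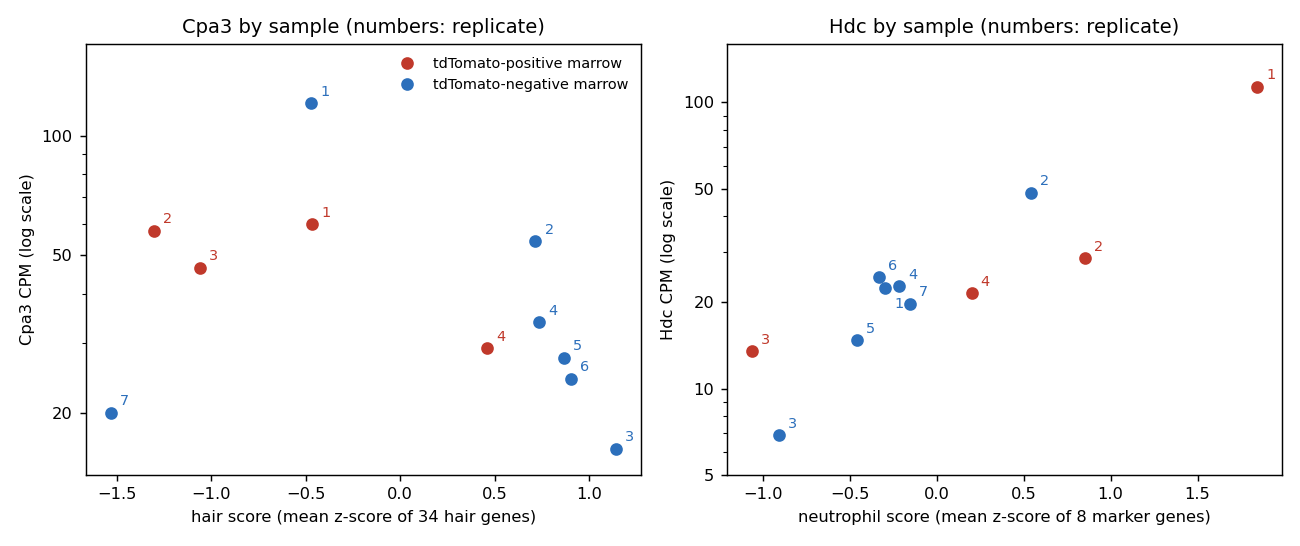
Left, Cpa3 in CPM (log axis) against the hair score, and right, Hdc in CPM (log axis) against the neutrophil score, with 1 point per sample (tdTomato-positive red, negative blue) and the replicate number beside it. Hdc is highest at the highest neutrophil score, in positive replicate 1, while Cpa3 is low at both ends of the hair score, in negative replicates 7 and 3.

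Of the genes of IgE receptor signalling, which other leukocytes also use, edgeR and DESeq2 called 0 of 19 between the groups, and limma-voom with sample quality weights, which gives less weight to libraries that deviate more, called 6. That tool called 14.3% of all genes and 0 of the 9 mast cell genes. Gab2, Fyn, Inpp5d and Lcp2 were among the 6, with adjusted p-values from 0.0211 to 0.0355. Of these, Fyn was lower in the positive group (-0.48 with that tool, -0.39 ± 0.16 SE in edgeR), and Gab2, Inpp5d and Lcp2 were higher. In edgeR the fitted values of 15 of the 19 genes exceeded 0, as did those of 48.6% of all genes. The median of the 19 was 0.26, and the unadjusted p was under 0.05 in 7, as in 16.8% of all genes. Without positive replicate 1 the median in edgeR was 0.13 with 1 such gene, and without negative replicate 1 it was 0.44. Gab2, an adaptor below the receptor, had 12.7, 11.8, 12.0 and 10.3 TPM in the positive group, against 5.39, 7.88 and 11.1 TPM as the lowest, median and highest negative values. The log2 fold change of Gab2 stood at 0.48 ± 0.15 (SE), and edgeR gave it an adjusted p of 0.248. Fcer1g, the gamma chain shared with Fc receptors of myeloid cells, had 0.48 ± 0.26 and an adjusted p of 0.361. Lcp2 and Inpp5d, an adaptor and a lipid phosphatase of blood cells, had 0.62 ± 0.23 and 0.53 ± 0.18. Without positive replicate 1 these were 0.13 for Fcer1g, 0.32 for Lcp2 and 0.27 for Inpp5d. The macrophage markers, which share much of this machinery, were above 0 in 12 of 12, where 48.6% of all genes were. The median of these markers was 0.58 (0.28 without positive replicate 1), and their part in the values of the IgE receptor signalling genes was not tested. With the hair score, where 7.67% of all genes rose and 4.37% fell, Fyn, a kinase of the Src family, rose (0.26, adjusted p = 0.0130), and Gab2 and Plcg2, a phospholipase of the pathway, fell (-0.22 and -0.25, adjusted p = 0.0445 and 0.0314). Fyn did not pass without negative replicate 7 (adjusted p = 0.0815). Gab2 did not pass without positive replicate 4 or without any of negative replicates 1, 3, 4, 5, 6 and 7, nor Plcg2 without positive replicate 4 or without negative replicate 1, 2, 3 or 6, with adjusted p-values up to 0.111 and 0.0981.

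The 14 tested genes of mast cell growth and identity gave 0 calls between the groups with edgeR and DESeq2, and 1 with quality-weighted limma-voom, Zeb2. In edgeR's fit 11 of the 14 were above 0, where 48.6% of all genes were. The median of the 14 was 0.20, and it was 0.34 without negative replicate 1 and 0.09 without positive replicate 1. Kit, the stem cell factor receptor, had 7.20, 7.27, 9.21 and 9.30 TPM in the positive group, against 5.96, 11.1 and 16.8 TPM as the lowest, median and highest negative values. The log2 fold change of Kit stood at -0.43 ± 0.21 (SE), and edgeR gave it an adjusted p of 0.320. Its ratio to Cpa3 varied 5.99-fold between samples. Melanocytes share Kit and Mitf with mast cells. Between the groups 9 of 9 melanocyte markers were below 0 with a median of -1.58, where 48.6% of all genes were above 0. Mitf had 11.8, 13.5, 12.9 and 21.7 TPM in the positive group, against 9.61, 21.1 and 22.8 TPM as the lowest, median and highest negative values. Mitf rose with the hair score (0.47 ± 0.06 SE, edgeR adjusted p = 0.000325), and was still called when any 1 of the 11 samples was left out, with an adjusted p of at most 0.0144. With the hair score 8 of 9 melanocyte markers were also above 0, with a median of 0.71, where 51.2% of all genes were below 0. Of these markers 3 were called higher and 1 lower, against 7.67% and 4.37% of all genes. Without negative replicate 7, 0 of them were called. The part of melanocytes in the Mitf values was not tested. Gata2 had a log2 fold change of 0.20 ± 0.28, Kitl, the Kit ligand, -0.04 ± 0.19, and Il1rl1, the receptor of the alarmin Il33, 0.61 ± 0.41, with adjusted p-values from 0.448 to 0.927. Without negative replicate 1 Gata2 was at 0.39 and Il1rl1 at 0.91, and without positive replicate 1 they were at 0.08 and 0.39. Zeb2, a transcription factor of many leukocytes and of fibroblasts, had 0.59 ± 0.19 and an edgeR adjusted p of 0.248, against 0.0211 with quality-weighted limma-voom.

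Of the histamine and eicosanoid genes, 13 of 14 tested were above 0, as were 48.6% of all genes, with a median of 0.49 for the 14. With edgeR 6 of the 14 had an unadjusted p under 0.05, as did 16.8% of all genes. Of the 14, 0 were called by edgeR and by DESeq2, while quality-weighted limma-voom called 4, where it called 14.3% of all genes. The 4 were Hnmt, Hpgds, Ptgs1 and Alox5, with adjusted p-values from 0.0211 to 0.0392. Without positive replicate 1 the median in edgeR was 0.39, with 2 genes at an unadjusted p under 0.05. Hnmt, the enzyme that breaks histamine down in tissues, had 6.41, 7.09, 4.61 and 4.73 TPM in the positive group, against 1.88, 2.82 and 4.75 TPM as the lowest, median and highest negative values. The groups overlapped through negative replicate 7, and its log2 fold change of 0.87 ± 0.24 (SE) had an adjusted p of 0.248 in edgeR. Hpgds, the prostaglandin D synthase of mast cells and other leukocytes, had 0.64 ± 0.22 and an adjusted p of 0.251. Alox5, which starts leukotriene synthesis, had 0.53 ± 0.19 and an adjusted p of 0.254, and was at 0.35 without positive replicate 1. Ptgds, the lipocalin-type synthase, had the opposite sign, -1.60 ± 0.64 with an adjusted p of 0.264. Ptgs1, the constitutive cyclooxygenase, fell with the hair score (-0.39, edgeR adjusted p = 0.00427), though not without negative replicate 7 (-0.27, adjusted p = 0.136). Hrh3, a histamine receptor, was listed at 0 in all 11 samples.

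The other granule genes had a median of 0.10 between the groups, with 7 of 12 tested above 0 (48.6% of all genes), and edgeR and DESeq2 called 0 of the 12. Quality-weighted limma-voom called 1, Cd63, a membrane protein of granules and lysosomes (log2 fold change 0.59, adjusted p = 0.0255), which in edgeR had 0.43 ± 0.17 (SE) and an adjusted p of 0.263. Cd63 had 470.3, 408, 310.2 and 276 TPM in the positive group, against 216, 264 and 365 TPM as the lowest, median and highest negative values. The median of the 12 was -0.03 without positive replicate 1. The mucosal mast cell proteases were scarce beside those of connective tissue. Mcpt2 had 4.57, 3.35, 2.67 and 3.18 TPM in the positive group, against 0.270, 1.47 and 11.8 TPM as the lowest, median and highest negative values. Over the 11 samples Mcpt2 had r = 0.774 and rho = 0.727 with Cpa3 (permutation p = 0.00551 and 0.0150, adjusted 0.00890 and 0.0262), and r = 0.538 without negative replicates 1 and 3, so the relation rests partly on them. Mcpt1 had 5.89, 2.39, 6.62 and 5.37 TPM in the positive group, against 0, 1.54 and 9.16 TPM, and was listed at 0 in 2 negative samples. Its log2 fold change of 1.02 ± 0.76 (SE) had an edgeR adjusted p of 0.490, and without negative replicate 1 it was 1.86 with an adjusted p of 0.147. Vamp8, a SNARE protein of granule release that is active in many cell types of skin, rose with the hair score (0.19, edgeR adjusted p = 0.0189). Without negative replicate 7 it was not called (adjusted p = 0.325).

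The genes outside these lists whose pattern was most like the mean of the tested members over the 11 samples were Vash2, Adss, Dkk2, F2r, Tph1 and Atp8a1. Their Pearson r with that mean was 0.960, 0.955, 0.948, 0.947, 0.940 and 0.940, and without negative replicate 1 it lay between 0.897 and 0.935. They were picked from all tested genes for this likeness, so these values are a description. Tph1, the enzyme that starts serotonin synthesis outside the brain, had 3.42, 6.26, 4.55 and 2.14 TPM in the positive group, against 1.32, 2.88 and 10.9 TPM as the lowest, median and highest negative values. F2r, a thrombin receptor, had 27.7, 26.4, 22.5 and 18.6 TPM in the positive group, against 11.3, 19.6 and 35.8 TPM. In both genes negative replicate 1 was again the highest of the 11 samples.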

How the data were processed

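Total RNA of mouse back skin was sequenced in 4 samples with tdTomato-positive and 7 with tdTomato-negative donor marrow, as the labels group them. Per the labels' protocols, ribosomal RNA was removed with RNase H, and random-primed libraries were sequenced on an Illumina instrument. RSEM, Trim Galore, bcl2fastq and the build GRCm38 appear in the submitters' processing notes. The aligner, the tool versions and the use of strand in counting were not given in the sources used here. Per the file headers, the authors deposited expected counts, which are RSEM's unnormalized estimates of reads per gene, and TPM, which RSEM scales by effective length and library. The deposited effective lengths, another quantity, served as an offset in 1 alternative, and the FPKM column was not used.

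Expected counts were rounded, and 14588 of 24411 genes passed filterByExpr (minimum count 10, minimum total 15). Groups were compared with edgeR 4.0.16 (TMM factors, glmQLFit in legacy mode, R 4.3.3), with Benjamini-Hochberg adjustment over all tested genes and a threshold of 0.05. The SE is the log2 fold change divided by the root of F. The hair coefficient came from a model with the hair score and group as terms. A score is the mean z-score of log2 CPM (prior count 2). A count of 0 was taken to allow 3 counts. The test was run on simulated counts with known changes. No 2 libraries agreed within sampling noise, with a chi-square per degree of freedom of at least 3.43 for each pair.

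Alternatives were other normalizations and filters, DESeq2 1.42.0, limma 3.58.1, score covariates, leaving out single samples and a replicate block. The members and the lists, 15 in all with 225 symbols, were chosen with earlier results of these data known. Named by rule were all members, in each of 4 mast cell lists the 4 genes with the smallest group p and the 2 with the smallest hair p, some fixed genes such as Kit and Gata2, and the 6 genes most like the members' mean, leaving out predicted and sex-linked genes. 1 gene that the rule named is not reported here. Il4, Ptgs2, Hrh3, Csf1, S100a8, S100a9, Cxcr2, Elane, Mpo, Camp, Ngp and Ltf were not named by the rule and were chosen after their values were seen. Coordinates and promoters are from RefSeq on GRCm38.p6.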

Additional observations from a re-analysis of the deposited data

Results flagged for a closer look

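Of 22 sets of values examined, the 10 members and their sum in each group, 11 had a sample whose gap to its nearest neighbour was larger than Dixon's 95% limit for the group's range. Chance gives about 1 in 20, or 1.1 sets, though the members vary together and the sets are not independent. In 8 sets the sample was negative replicate 1, highest of the 7 negative samples: Cpa3 at 157.1 TPM, Mcpt4 at 306.1, Cma1 at 169.4, Tpsb2 at 133.7, Ms4a2 at 8.98, Mrgprb1 at 8.94 and Mrgprb2 at 3.58 TPM, and the sum of the members at 837.0 TPM. The other negative samples had sums of 113.2 to 342.4 TPM. Positive replicate 4 was the lowest of the 4 positive samples for Cma1, with 42.29 TPM against 71.62 to 77.37 TPM in the other positive samples. For Hdc, positive replicate 1 was the highest of the 4 positive samples with 78.93 TPM against 10.15 to 19.87 TPM, and negative replicate 2 the highest of the 7 negative samples with 33.49 TPM against 4.53 to 16.73 TPM.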

How the results depend on the processing

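Over the alternatives, 0 members were called between the groups under any of them, and the planned normalizations, filters, tools and offsets kept the 9 tested members above 0, while Tpsab1, tested only with no filter, was below 0. Genes called between the groups numbered 68 with DESeq2 (851 adjusted p-values NA), 2093 with quality-weighted voom, 2 with the hair covariate and negative replicate 1 left out, and 0 to 3 on leaving out single samples. Members above 0 numbered 2 with the hair, 2 with the fibroblast and 2 with the neutrophil covariate (chosen after seeing the data, as were fits with a covariate and negative replicate 1 left out), 4 with the replicate block, and 5 to 9 without single samples. With the hair covariate Cpa3 was at -0.25, Mcpt4 -0.37, Cma1 -0.32, Tpsb2 -0.39, Fcer1a -0.25, Mrgprb1 -0.25 and Mrgprb2 -0.16. With the fibroblast covariate these were -0.43, -0.50, -0.48, -0.54, -0.47, -0.42 and -0.49. With the neutrophil covariate Cpa3 was at -0.0051, Mcpt4 -0.0005, Tpsb2 -0.083, Fcer1a -0.11, Mrgprb1 -0.037, Mrgprb2 -0.063 and Hdc -0.19. Kit was at 0.059 and 0.17 with negative replicate 1 left out and the hair or fibroblast covariate. Without single samples the log2 fold change was -0.091 to 0.57 for Mcpt4, -0.022 to 0.58 for Cma1, -0.072 to 0.60 for Tpsb2, -0.035 to 0.60 for Fcer1a, -0.064 to 0.47 for Mrgprb1, -0.0040 to 0.56 for Mrgprb2 and -0.10 to 1.27 for Hdc. The difference in summed TPM was 3.38 to 124.

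The replicate numbers did not pair the samples (correlations of deviations -0.04, -0.14, -0.05 and 0.34). With the block 0 genes were called, and Mcpt4 was at -0.013, Cma1 -0.010, Tpsb2 -0.039, Fcer1a -0.13 and Mrgprb1 -0.078.

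For the hair score, genes called numbered 3061 without a group term, 356 with the fibroblast score added and 1191 to 1969 without single samples, and members called 0 to 6. With the fibroblast score added, the coefficients were 0.20 for Cpa3, 0.17 Mcpt4, 0.12 Cma1, 0.084 Tpsb2, 0.15 Ms4a2, 0.10 Fcer1a, 0.12 Mrgprb1 and 0.19 Mrgprb2. Hdc was at -0.091 with limma-trend on log2(TPM + 1) and -0.26 without a group term, and at -0.075 to 0.23 without single samples. Ms4a2 was at -0.51 to 0.011 without single samples. The cause of these changes was not tested. Depth limits Tpsab1, with 2 samples at 0, more than the other members, whose smallest count was 5.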
